A study of Mus musculus with 9 samples.

Results

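The 2 knockdowns of the study were compared directly with each other: cardiac fibroblasts given guide RNAs against Gata4 and cardiac fibroblasts given guide RNAs against Tbx20. The comparison was defined by the guides alone and holds 6 of the 9 libraries of the series, 3 Gata4 KD and 3 Tbx20 KD. The other 3 are controls with scrambled guides, which entered no test here and are given only as a reference level. All cells were primary fibroblasts from hearts of adult mice, 8 to 10 weeks old, of C57BL/6 background, which carry RosaCas9-EGFP, an allele that expresses Cas9, the DNA-cutting enzyme, together with EGFP from the Rosa26 locus. Controls carry this allele as well. Cells were kept in culture for 3 days, sorted as CD45-CD31-CD90+, replated, grown for 6 days more and transfected with guide RNA. Each knockdown used 2 guides against its gene, delivered together to a whole culture, so a library pools edited and unedited cells. The labels name the libraries of a group a, b and c and do not say whether these came from separate animals, so p-values measure the spread between these libraries.

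Gata4 is a zinc finger transcription factor that binds short DNA words with the core GATA, and Tbx20 is a T-box factor. The embryonic heart does not form properly without either, and both are also transcribed in cardiac fibroblasts, the cells that make and remodel the matrix of the heart. A direct comparison of both knockdowns asks how far the transcriptomes of cells with less Gata4 and cells with less Tbx20 lie apart, with transfection and Cas9 cutting present on both sides.

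The guides are shown because they define the groups. Each site is given 5′ to 3′ with the PAM, the bases that Cas9 requires next to its target, in capitals.
Gata4_sgRNA1: cagagagtgtgtcaattgtgGGG
Gata4_sgRNA3: gcaggactgggctgtcgaagGGG
Tbx20_sgRNA2: caaattccatgaactgggcaCGG
Tbx20_sgRNA3: gagctgctcgccagtaaaggGGG
On GRCm38 the Gata4 protospacers lie at chr14:63204711-63204730 on the minus strand, in exon 3 of 7, and at chr14:63240581-63240600 on the plus strand, in exon 2 of 7. The Tbx20 protospacers lie at chr9:24770708-24770727 on the minus strand, in exon 2 of 8, and at chr9:24765732-24765751 on the plus strand, in exon 4 of 8. All 4 sites are in coding sequence of the transcripts Gata4-201 and Tbx20-201. Within 3 mismatches and next to an NGG PAM, the transcripts of tested genes other than the targets held 1 further match to Tbx20_sgRNA2 and 0 to each of the other guides, and the gene with that match was not called.

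The targeted transcripts separated the groups in the direction of their labels. Gata4 stood at 54, 46.7 and 65.5 CPM (counts scaled to library size over all 9 libraries) in Gata4 KD a, b and c and at 178, 192 and 198 CPM in Tbx20 KD a, b and c. Every Gata4 KD library was below every Tbx20 KD library, and controls were at 155 to 167 CPM. The log2 fold change, given throughout as Gata4 KD over Tbx20 KD, was -1.77 (SE 0.12, adjusted p = 0.0013). Tbx20 stood at 673, 513 and 909 CPM in Gata4 KD and at 320, 426 and 428 CPM in Tbx20 KD, with controls at 1011, 1276 and 721 CPM. The groups did not overlap, but the spread within Gata4 KD was wide and the difference of 0.84 (SE 0.21) did not pass the threshold of 0.05 in edgeR's quasi-likelihood test (adjusted p = 0.109). It passed in DESeq2 (adjusted p = 0.00063) and in edgeR's exact test (adjusted p = 0.00427). The mean of Tbx20 in Gata4 KD, 698 ± 199 CPM (SD, n = 3), lay between Tbx20 KD at 391 ± 61.8 CPM (SD, n = 3) and control at 1003 ± 278 CPM (SD, n = 3), and the ranges of Gata4 KD and control overlapped. Reads over a whole gene report the amount of transcript and not the edit at the cut site.

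**Figure D1:**
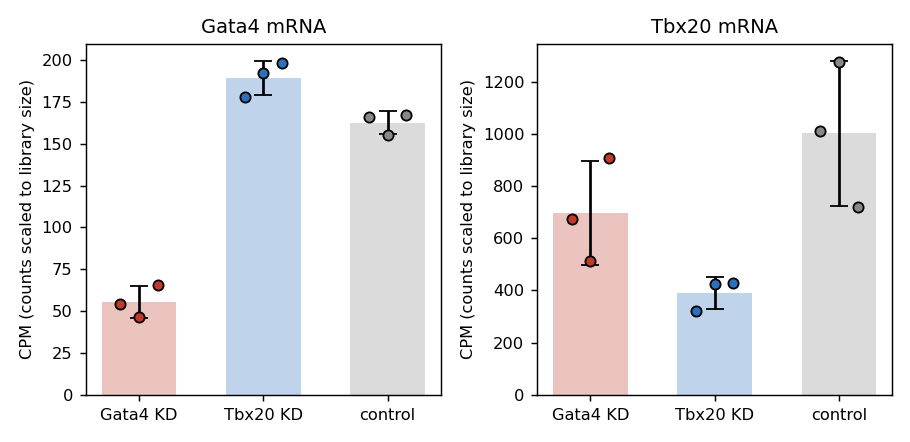
Counts scaled to library size (CPM) of Gata4 (left) and Tbx20 (right) in each library, with bars for the group mean and error bars for the SD (n = 3). Gata4 was at 46.7 to 65.5 CPM in Gata4 KD and at 178 to 198 CPM in Tbx20 KD, and Tbx20 was at 513 to 909 CPM in Gata4 KD and at 320 to 428 CPM in Tbx20 KD.

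Depth was similar across the 6 libraries, at 31214828 to 41950397 counts. Libraries of one group were little more alike (Pearson r of log2 CPM 0.9868 to 0.9934) than libraries of different groups (0.9813 to 0.9925), and the biological coefficient of variation was 12% in Gata4 KD and 8.26% in Tbx20 KD. Gata4 KD c stood apart from Gata4 KD a and b on both leading principal components, with 6.9 against -18.6 and -35.9 on the first and -27.9 against 0.8 and 0.3 on the second. Ribosomal RNA and small nuclear RNA genes, a sign of how well an mRNA library was selected, summed to 31505 CPM in Gata4 KD a and to 3811 to 6369 CPM in the other 5. The fibroblast markers were present throughout, with 20 of 20 tested and a sum of 12956 to 17644 CPM in Gata4 KD and 16137 to 19402 CPM in Tbx20 KD. No fibroblast marker was called, which says little at a share of 1.44% called among all genes. Of the 20 markers, 6 had an unadjusted p under 0.05, which 16.7% of all genes tested had.

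Of 14477 genes tested, 208 (1.44%) differed between the knockdowns. In Gata4 KD, 118 genes (0.815%) were higher and 90 (0.622%) lower. Counts of called genes in the lists below are to be read against these shares. The calls were mostly of modest size: the median change was 1.52-fold among the higher and 1.62-fold among the lower genes, and 26 higher and 27 lower genes changed at least 2-fold. All 208 had no overlap between the 3 and 3 libraries, as did 3333 genes in all (23%). The split between higher and lower genes depended on scaling: with library size in place of TMM factors 202 genes were called, 90 higher and 112 lower, as the median of all genes tested moved from -0.006 to -0.035. DESeq2 called 758 genes and edgeR's exact test 729. The count depended strongly on single libraries. It was 22 without Gata4 KD a, 55 without Gata4 KD b, 801 without Gata4 KD c, 104 without Tbx20 KD a, 28 without Tbx20 KD b and 27 without Tbx20 KD c. The library Gata4 KD c was the one nearest to Tbx20 KD for 67 of the 118 higher and 52 of the 90 lower genes.

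Of the 208 genes, 21 stayed called without each library in turn, 12 higher and 9 lower in Gata4 KD, and these 21 also stayed called under every other alternative tried. Higher were Dio2, Vdr, Cyp26b1, Fgf7, Hgf, Gucy1a2, Id4, Frk, Tanc2, Chst15, Slc48a1 and Tpbg. Lower were Gata4, Lrrn4, Mmp10, Mmp13, Mmp27, Tnnt2, Itga4, Cplx2 and Rnpepl1. Chst15, a sulfotransferase of chondroitin chains, was at 15.3, 16 and 15.6 CPM in Gata4 KD and at 8, 7.65 and 7.09 CPM in Tbx20 KD (log2 fold change 1.04, adjusted p = 0.00173). It, the haem transporter gene Slc48a1 and Tpbg were named after their values were seen.

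**Figure D2:**
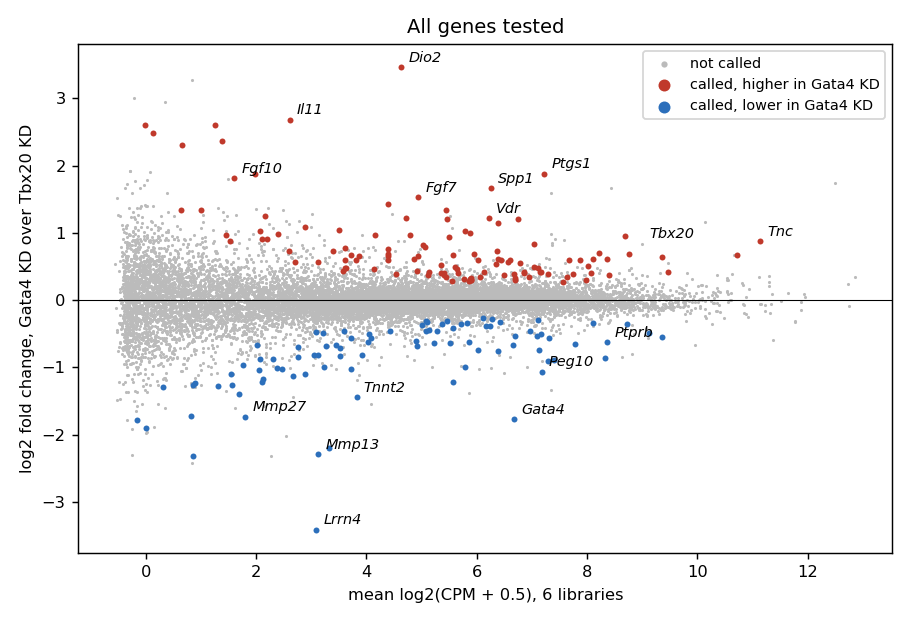
Log2 fold change of Gata4 KD over Tbx20 KD against mean log2(CPM + 0.5) of the 6 libraries for all 14477 genes tested. Red points are the 118 genes called higher in Gata4 KD and blue points the 90 called lower, with selected genes labelled, Tbx20 among them although it was not called.

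Controls were closer to Tbx20 KD than to Gata4 KD for most of the genes called. On the scale of log2(CPM + 0.5), the control mean lay nearer to the Tbx20 KD mean for 191 of the 208 genes, 114 of the higher and 77 of the lower ones, and nearer to the Gata4 KD mean for 17. The median position of the control mean was 13% of the way from Tbx20 KD to Gata4 KD. This describes levels and was not tested.

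The promoter windows of the genes were searched for the words their factors bind, namely the words AGATAA and AGATAG, or with another first letter TGATAA and also TGATAG, for GATA factors, and the word AGGTGT for T-box factors, on both strands and in any window of a gene. Windows were the 300 bases from 250 before to 50 after a transcription start in RefSeq on GRCm38.p6. Of the genes lower in Gata4 KD, 28 of the 67 with a window held a GATA word (41.8%), as did 28 of 92 higher genes (30.4%), 2368 of 10752 tested genes (22%) and 33% of the 27025 genes in the promoter table. Called genes had more windows each, 1.58 among the lower and 1.6 among the higher genes against 1.28 among all tested. Counted per window, the shares were 33% of 106 windows of lower genes, 27.2% of 147 of higher genes and 19% of 13767 of tested genes. The median GC content was 58.3% in lower, 60.5% in higher and 60.7% in all tested genes. The T-box word was in 13.4% of lower, 12% of higher and 12.9% of tested genes. These are counts of letters and not of bound sites, and no test was made.

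Windows of 4 genes that are described next are shown because each held at least 1 GATA word, in capitals. They read 5′ to 3′ on the strand of the gene, and none held the T-box word. Dio2 was higher in Gata4 KD and the other three lower. The windows lie at chr12:90738989-90739288 (minus strand) for Dio2, chr1:135836084-135836383 (plus) for Tnnt2, chr9:7272264-7272563 (plus) for Mmp13 and chr9:7571146-7571445 (plus) for Mmp27. In Dio2 the word falls in the transcribed end of the window. Tnnt2 had another window, at chr1:135836739-135837038 (plus), which held neither word and is not shown. The windows of Mmp10 and Lrrn4 held neither word.
Dio2: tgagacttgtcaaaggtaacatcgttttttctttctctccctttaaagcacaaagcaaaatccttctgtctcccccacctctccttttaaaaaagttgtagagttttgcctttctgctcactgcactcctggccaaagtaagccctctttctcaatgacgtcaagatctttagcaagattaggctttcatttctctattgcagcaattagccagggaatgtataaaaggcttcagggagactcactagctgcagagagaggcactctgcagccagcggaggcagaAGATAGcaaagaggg
Tnnt2: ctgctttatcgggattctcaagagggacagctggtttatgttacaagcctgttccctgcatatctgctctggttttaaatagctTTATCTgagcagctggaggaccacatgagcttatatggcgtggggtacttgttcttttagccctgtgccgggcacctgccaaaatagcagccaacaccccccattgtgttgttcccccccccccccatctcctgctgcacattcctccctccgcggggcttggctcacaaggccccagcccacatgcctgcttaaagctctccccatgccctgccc
Mmp13: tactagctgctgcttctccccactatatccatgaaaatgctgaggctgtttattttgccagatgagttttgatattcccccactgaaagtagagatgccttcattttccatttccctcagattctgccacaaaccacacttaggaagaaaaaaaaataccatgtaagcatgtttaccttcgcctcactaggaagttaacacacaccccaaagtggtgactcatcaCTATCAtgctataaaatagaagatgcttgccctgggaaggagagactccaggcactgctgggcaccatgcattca
Mmp27: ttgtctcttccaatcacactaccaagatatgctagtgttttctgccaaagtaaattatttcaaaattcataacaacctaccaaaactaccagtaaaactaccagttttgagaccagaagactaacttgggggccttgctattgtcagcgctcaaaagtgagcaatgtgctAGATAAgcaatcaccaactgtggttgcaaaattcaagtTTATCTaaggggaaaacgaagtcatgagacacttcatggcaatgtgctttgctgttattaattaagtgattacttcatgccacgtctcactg

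The gene with the highest fold change among those named was Dio2, which encodes the deiodinase that turns the thyroid prohormone T4 into active T3. It was at 79.6, 86.9 and 71.6 CPM in Gata4 KD and at 6.51, 7.3 and 7.76 CPM in Tbx20 KD, with 4.93 to 7.56 CPM in control. The Gata4 KD libraries were far above all others, by 11-fold in the model against Tbx20 KD (log2 fold change 3.47, SE 0.10, adjusted p = 2.69e-05). Of 8 tested genes of thyroid hormone metabolism and reception, Dio2 was the 1 called, where 1.44% of all genes tested were called. Vdr, the vitamin D receptor, was at 107 to 117 CPM in Gata4 KD and at 45.7 to 53 CPM in Tbx20 KD (log2 fold change 1.22, SE 0.07, adjusted p = 0.000906). Cyp26b1, an enzyme that breaks down retinoic acid, was at 161, 172 and 157 CPM in Gata4 KD and at 75.5, 67.7 and 68.8 CPM in Tbx20 KD (log2 fold change 1.21, SE 0.06, adjusted p = 0.000625). Aldh1a1, an enzyme that makes retinoic acid, moved the other way, with 160 to 201 CPM in Gata4 KD and 261 to 292 CPM in Tbx20 KD (log2 fold change -0.65, SE 0.09, adjusted p = 0.0242). These 2 were the calls among 17 tested genes of retinoic acid synthesis, breakdown and reception, whose median log2 fold change was -0.01. Among 22 other nuclear receptors of the list, Vdr and Nr4a1 were higher and 0 lower. Nr1h4, the bile acid receptor FXR, is not in the list and was lower, with 11.9 to 14.1 CPM in Gata4 KD and 19.2 to 20.3 CPM in Tbx20 KD (log2 fold change -0.62, adjusted p = 0.0189). It was named after its values were seen. Nr4a1, a receptor that is switched on within minutes of a stimulus, was at 36.1 to 42.3 CPM in Gata4 KD and at 11.9 to 23.4 CPM in Tbx20 KD. Dio2, Vdr and Cyp26b1 kept their calls without any 1 library. Those of Aldh1a1, Nr4a1 and Nr1h4 were lost on leaving out single libraries, with the highest adjusted p for Aldh1a1 (0.133 without Tbx20 KD b), Nr4a1 (0.221 without Tbx20 KD c) and Nr1h4 (0.119 without Tbx20 KD c).

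**Figure D3:**
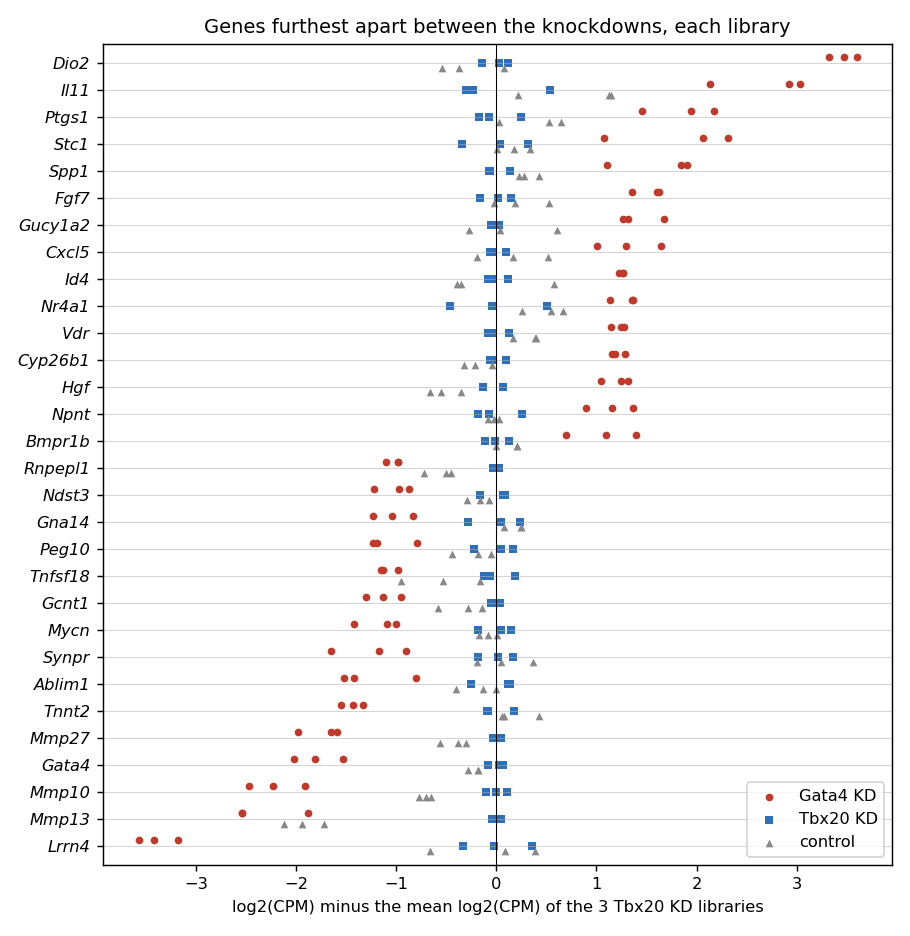
Log2(CPM) of each library, less the mean of the 3 Tbx20 KD libraries, for the 15 genes with the highest and the 15 with the lowest log2 fold changes among called genes of at least 5 CPM in the higher group. Only genes without overlap between the knockdowns were taken, so their separation in each gene follows from the choice. Controls lie near Tbx20 KD for most genes but near Gata4 KD for Mmp13.

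Several growth factors that fibroblasts pass to neighbouring epithelial and endothelial cells were higher in Gata4 KD. Of 25 tested genes of the FGF, HGF and EGF families, 4 were higher and 0 lower at a median log2 fold change of 0.01 for the list. Among all genes tested, 0.815% were called higher and 0.622% lower. Fgf7, a ligand of the epithelial form of FGF receptor 2, was at 54.9, 54.2 and 45.5 CPM in Gata4 KD and at 18, 19.7 and 15.9 CPM in Tbx20 KD (log2 fold change 1.53, SE 0.10, adjusted p = 0.0013). Fgf10, which binds the same receptor, was at 4.82, 5.29 and 3.82 CPM against 1.44, 1.38 and 1.14 CPM (log2 fold change 1.81, SE 0.18, adjusted p = 0.00683). Hgf, hepatocyte growth factor, was at 68.1, 59.4 and 71.2 CPM in Gata4 KD and at 26.2, 30 and 30.1 CPM in Tbx20 KD (2.3-fold higher, SE 0.09 on the log2 scale, adjusted p = 0.00173). Its control level of 18.1 to 22.5 CPM was below both knockdowns. Fgf2 was at 25.1 to 28.3 CPM against 13.1 to 18.5 CPM (adjusted p = 0.0377). Of 15 tested VEGF and angiopoietin genes, 3 were higher and 0 lower. Vegfa, the main growth factor of blood vessels, was at 173 to 183 CPM in Gata4 KD and at 132 to 145 CPM in Tbx20 KD (log2 fold change 0.39, SE 0.05, adjusted p = 0.0236). Angptl2 (0.40, SE 0.07) and the receptor gene Kdr (0.90, SE 0.13) were the others. Fgf7 and Hgf kept their calls without any 1 library. Leaving out single libraries ended the other calls, with the highest adjusted p for Fgf10 (0.0584 without Gata4 KD a), Fgf2 (0.183 without Tbx20 KD b), Vegfa (0.142 without Tbx20 KD c), Angptl2 (0.183 without Tbx20 KD b) and Kdr (0.142 without Tbx20 KD c).

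Il11, a cytokine that signals through gp130, was at 16, 17.3 and 9.27 CPM in Gata4 KD and at 3.05, 1.79 and 1.71 CPM in Tbx20 KD, with 2.44 to 4.65 CPM in control. The lowest Gata4 KD library, c, was still above all Tbx20 KD and control libraries (log2 fold change 2.68, SE 0.31, adjusted p = 0.0115). Il6, of the same family, was at 133 to 136 CPM in Gata4 KD and at 90.6 to 109 CPM in Tbx20 KD (log2 fold change 0.42, SE 0.07, adjusted p = 0.0405). Il11 and Il6 were the 2 higher genes among 15 tested in the family, with 0 lower, where 1.44% of all genes tested were called. Among 21 tested chemokine and atypical chemokine receptor genes of the list, 1 was higher and 1 lower. Cxcl5, which attracts neutrophils, was at 54.5 to 85.1 CPM in Gata4 KD and at 26 to 29.1 CPM in Tbx20 KD (log2 fold change 1.34, SE 0.15, adjusted p = 0.0115). Cxcl10, an interferon-induced chemokine, was at 98.4, 114 and 133 CPM in Gata4 KD and at 186, 261 and 200 CPM in Tbx20 KD (log2 fold change -0.91, SE 0.15, adjusted p = 0.0404). Ccl4, a macrophage chemokine that is not in the list and was named after its values were seen, was lower too, at 1.44 to 1.79 CPM against 3 to 4.17 CPM (log2 fold change -1.09, adjusted p = 0.0367). Among 17 tested prostaglandin genes, a gene for the first step of the pathway was higher and a gene for a later step lower. Ptgs1, a cyclooxygenase that starts prostaglandin synthesis, was at 301, 354 and 215 CPM in Gata4 KD and at 93, 69.4 and 74.2 CPM in Tbx20 KD (log2 fold change 1.88, SE 0.19, adjusted p = 0.00754). Ptgs2, the other cyclooxygenase gene and the most abundant of the list, was not called, which does not show equal levels. The paper names Ptgs2 among genes that the knockdowns changed in opposite directions against control. The list summed to 1120 to 2150 CPM in Gata4 KD and to 839 to 1096 CPM in Tbx20 KD. Without Ptgs2 the sums were 795 to 1079 CPM and 709 to 768 CPM. Ptgis, the prostacyclin synthase that acts after the cyclooxygenases, was at 114 to 139 CPM in Gata4 KD and at 178 to 207 CPM in Tbx20 KD (log2 fold change -0.57, SE 0.09, adjusted p = 0.0347). Tnfsf18, the ligand of the T cell receptor GITR, was at 4.49 to 5.07 CPM in Gata4 KD and at 9.17 to 11.4 CPM in Tbx20 KD (log2 fold change -1.10, SE 0.12, adjusted p = 0.00885), and was the 1 call among 21 tested TNF superfamily genes. None of these 8 called genes kept its call when each library was left out in turn. The highest adjusted p was reached for Tnfsf18 (0.0577 without Gata4 KD a), Ptgs1 (0.0687 without Tbx20 KD c), Il11 (0.0911 without Tbx20 KD c), Cxcl5 (0.0927 without Tbx20 KD c), Ptgis (0.16 without Tbx20 KD b), Ccl4 (0.151 without Tbx20 KD b), Cxcl10 (0.165 without Gata4 KD a) and Il6 (0.18 without Tbx20 KD b).

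In Gata4 KD, 3 genes of the matrix metalloproteinase cluster on chromosome 9, which encode enzymes that cut collagen and other matrix proteins, were lower than in Tbx20 KD. Of 7 tested genes of the cluster 3 were lower and 0 higher, and the median log2 fold change was -1.38. Of all genes tested, 0.622% were called lower. Mmp13 (chr9:7272514-7283331), a collagenase, was at 4.88, 3.08 and 3.1 CPM in Gata4 KD and at 17.9, 18.6 and 17.5 CPM in Tbx20 KD (log2 fold change -2.29, SE 0.17, adjusted p = 0.00176). Its control level of 4.14 to 5.47 CPM was close to Gata4 KD, unlike that of most called genes. Mmp10 (chr9:7502352-7510240), a stromelysin, was at 5.29, 3.61 and 4.26 CPM in Gata4 KD and at 21.5, 19.9 and 18.6 CPM in Tbx20 KD (log2 fold change -2.19, SE 0.14, adjusted p = 0.00119). Here controls, at 11.7 to 12.7 CPM, lay between both knockdowns. Mmp27 (chr9:7571396-7581885) was at 1.35 to 1.77 CPM in Gata4 KD and at 5.23 to 5.51 CPM in Tbx20 KD (log2 fold change -1.73, SE 0.14, adjusted p = 0.00272), with controls at 3.62 to 4.34 CPM. Mmp3, another stromelysin of the cluster, had values of 31.5, 19.4 and 65.9 CPM in Gata4 KD and 61.6, 131 and 112 CPM in Tbx20 KD. Its groups overlapped, since Gata4 KD c exceeded Tbx20 KD a, and the difference of -1.38 did not pass (adjusted p = 0.19). Mmp12, which lies between Mmp13 and the other members, was at 9.72 to 10.8 CPM and 7.29 to 12.1 CPM (log2 fold change 0.06, adjusted p = 0.901). Outside the cluster, none of 13 tested metalloproteinase and TIMP genes was called, and the count at an unadjusted p under 0.05 was 0 as well. The calls of Mmp13, Mmp10 and Mmp27 held without any 1 library.

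**Figure D4:**
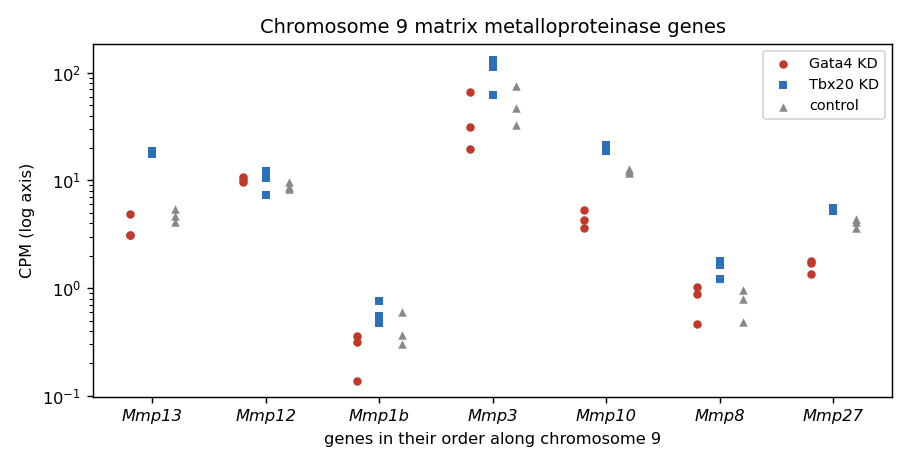
Counts scaled to library size (CPM) on a log axis for the 7 tested genes of the chromosome 9 matrix metalloproteinase cluster, in their order along the chromosome, with 1 point per library. Mmp13, Mmp10 and Mmp27 show the Gata4 KD libraries below the Tbx20 KD libraries by more than the spread within groups, whereas Mmp12 shows both at the same level.

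Matricellular proteins, which sit in the matrix and signal to cells, changed in both directions, with 2 of 23 tested higher and 1 lower. The share called among all genes was 1.44%. Spp1, which encodes osteopontin, was at 155, 162 and 93.1 CPM in Gata4 KD and at 41.4, 47.3 and 41 CPM in Tbx20 KD (log2 fold change 1.66, SE 0.20, adjusted p = 0.0152). Tnc, which encodes tenascin C, was at 3308, 3214 and 2675 CPM in Gata4 KD and at 1827, 1403 and 1786 CPM in Tbx20 KD (log2 fold change 0.87, SE 0.12, adjusted p = 0.0242). Ccn4 went the other way, with 211 to 266 CPM in Gata4 KD and 408 to 447 CPM in Tbx20 KD (log2 fold change -0.86, SE 0.09, adjusted p = 0.00754). Npnt, the integrin ligand nephronectin, was at 104 to 144 CPM in Gata4 KD and at 49.2 to 66.9 CPM in Tbx20 KD (log2 fold change 1.14, SE 0.15, adjusted p = 0.0188). Collagen genes mostly did not pass the test. Of 16 fibril-forming collagens and their helpers, 1 was higher (Col2a1, 0.61, SE 0.10) and 0 lower with a median of -0.18, and of 23 other collagens 1 was higher (Col12a1, 0.96, SE 0.15) and 0 lower with a median of -0.11. Col12a1, a collagen that decorates fibrils, was at 538, 697 and 498 CPM in Gata4 KD and at 337, 256 and 299 CPM in Tbx20 KD. Of 19 ADAMTS proteases 1 was higher, Adamts6 (0.66, SE 0.09). None of these calls held when each library was left out in turn, and the highest adjusted p was reached for Spp1 (0.11 without Tbx20 KD c), Tnc (0.121 without Gata4 KD a), Ccn4 (0.0801 without Gata4 KD a), Npnt (0.119 without Tbx20 KD c), Col2a1 (0.171 without Tbx20 KD c), Col12a1 (0.155 without Tbx20 KD c) and Adamts6 (0.144 without Tbx20 KD c).

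Tnnt2, of the heart muscle list, and Lrrn4, of the epicardial list, were among the clearest differences, both lower in Gata4 KD. The epicardium is the outer layer of the heart from which many cardiac fibroblasts derive. Tnnt2, which encodes cardiac troponin T of the sarcomere, was at 8.88, 7.65 and 8.3 CPM in Gata4 KD, at 25.3, 21.2 and 21 CPM in Tbx20 KD and at 23.3 to 30.2 CPM in control (log2 fold change -1.44, SE 0.10, adjusted p = 0.00154). It was the 1 call among 8 tested sarcomere and cardiomyocyte genes, and 15 more did not pass the filter on low counts. Of the 8, 3 had a log2 fold change above 0 and 5 below, at a median of -0.06. The list summed to 562, 572 and 527 CPM in Gata4 KD and to 503, 460 and 494 CPM in Tbx20 KD. Without Atp2a2, its most abundant member, the sums were 20.6, 18.6 and 20 CPM against 37.7, 31.7 and 32.2 CPM, with Tnnt2 included. Lrrn4, a leucine-rich repeat gene used as a mesothelial marker, was at 2.74, 2.09 and 2.32 CPM in Gata4 KD and at 31.9, 24.4 and 19.8 CPM in Tbx20 KD, with controls at 15.7 to 32.5 CPM (log2 fold change -3.42, SE 0.20, adjusted p = 0.000961). Of 17 tested epicardial and mesothelial genes, Lrrn4, Gpm6a (-1.90, SE 0.26) and Aldh1a1 were lower and 0 higher, with a median log2 fold change of -0.22. Called or not, 13 of the 17 had a value below 0 and 4 above, up to 1.17. Of all genes tested, 0.622% were called lower. Other defining genes of that layer did not pass: Wt1 was at 0.526 to 1.02 CPM in Gata4 KD and at 0.694 to 1.14 CPM in Tbx20 KD, and Upk3b at 0.606 to 1.11 CPM and 1.76 to 2.41 CPM (adjusted p = 0.0586). The sum of the list was 540 to 678 CPM in Gata4 KD and 696 to 768 CPM in Tbx20 KD, but without its most abundant member, Aldh1a1, the sums were 400, 380 and 477 CPM in Gata4 KD and 435, 476 and 433 CPM in Tbx20 KD, which overlap. In bulk RNA, fewer cells of a type and less RNA per cell cannot be told apart. The calls of Tnnt2 and Lrrn4 held without any 1 library. That of Gpm6a rests on as few as 7 counts in a library and was lost on leaving out single libraries, most of all Tbx20 KD c (adjusted p = 0.119).

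Soluble guanylate cyclase, the receptor for nitric oxide, is a dimer of an alpha and a beta subunit. Of its subunit genes that were called, an alpha gene was higher and the beta gene lower in Gata4 KD. Gucy1a2, an alpha subunit, was at 31.3, 40.1 and 30.2 CPM in Gata4 KD and at 12.8, 12.1 and 12.8 CPM in Tbx20 KD (log2 fold change 1.43, SE 0.12, adjusted p = 0.00272). Gucy1b1, the beta subunit, was at 121, 108 and 146 CPM in Gata4 KD and at 199, 250 and 245 CPM in Tbx20 KD (log2 fold change -0.89, SE 0.13, adjusted p = 0.0258). The second alpha subunit gene, Gucy1a1, was uneven within groups, with 7.49, 4.16 and 22.2 CPM in Gata4 KD and 15.9, 40.6 and 42.7 CPM in Tbx20 KD, and its difference of -1.54 did not pass (adjusted p = 0.262). Pde3b, a phosphodiesterase that cGMP inhibits, was at 24 to 27.1 CPM and at 14.9 to 18.6 CPM (log2 fold change 0.59, SE 0.10, adjusted p = 0.0367). In all 2 of 17 tested genes were higher and 1 lower, against a share of 1.44% called among all genes. Gucy1a2 kept its call without any 1 library. The others lost theirs on leaving out single libraries, with the highest adjusted p for Gucy1b1 (0.143 without Gata4 KD a) and Pde3b (0.14 without Tbx20 KD b).

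The integrin and cadherin genes that were called were lower in Gata4 KD, and no connexin was called. Itga4, the alpha subunit of the integrin VLA-4, was at 46.9, 53.4 and 51 CPM in Gata4 KD and at 89.1, 79 and 83.7 CPM in Tbx20 KD (log2 fold change -0.74, SE 0.07, adjusted p = 0.00545), and was the 1 call among 22 integrins. Vcam1, the ligand of that integrin and a gene outside the lists that was picked after its values were seen, was at 564, 501 and 577 CPM in Gata4 KD and at 759, 870 and 768 CPM in Tbx20 KD (log2 fold change -0.55, adjusted p = 0.0258). Of 16 connexins and cadherins 2 were lower and 0 higher, against a share of 1.44% called among all genes. Cdh2, or N-cadherin, was at 453 to 490 CPM in Gata4 KD and at 650 to 682 CPM in Tbx20 KD (log2 fold change -0.49, SE 0.05, adjusted p = 0.00912), and Cdh3, or P-cadherin, was at 2.64 to 3.62 CPM and 5.51 to 6.33 CPM (adjusted p = 0.0405). Other adhesion genes outside the lists, also picked after their values were seen, were higher: Nectin1, an adhesion protein of cell junctions, at 45 to 47.6 CPM against 33.2 to 36.7 CPM (log2 fold change 0.40, adjusted p = 0.0258), and Selp, which encodes P-selectin, at 4.26 to 5.78 CPM against 2.63 to 3.15 CPM (0.90, adjusted p = 0.0467). Itga4 kept its call without any 1 library. Leaving out single libraries ended the other calls, with the highest adjusted p for Vcam1 (0.127 without Gata4 KD a), Cdh2 (0.0859 without Gata4 KD a), Cdh3 (0.19 without Tbx20 KD b), Nectin1 (0.141 without Tbx20 KD c) and Selp (0.221 without Tbx20 KD c).

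Of 23 tested BMP and GDF signalling genes 3 were higher in Gata4 KD and 0 lower, where 0.815% of all genes were called higher. Id4, a transcriptional inhibitor that BMP signals induce, was at 6.11, 5.95 and 6.09 CPM in Gata4 KD and at 2.39, 2.76 and 2.48 CPM in Tbx20 KD (log2 fold change 1.25, SE 0.11, adjusted p = 0.00428). The receptor gene Bmpr1b (1.09, SE 0.18) and the receptor-activated Smad9 (0.59, SE 0.10) were the others. BMP genes outside the list went both ways and were named after their values were seen. Bambi, a decoy receptor that dampens BMP and activin signals, was lower, at 9.63 to 11.1 CPM against 15.1 to 15.5 CPM (log2 fold change -0.56, adjusted p = 0.0225). Crim1 (0.70, SE 0.09) and Smoc1 (0.69, SE 0.11), which encode regulators of BMP signals, were higher. Of 22 tested TGF-beta genes Tgfbr1, the type I receptor, was higher by a small amount, with 62.9 to 68.6 CPM against 52.6 to 54.3 CPM (log2 fold change 0.30, SE 0.05, adjusted p = 0.0405). Of 22 tested Wnt genes Wnt5a (0.42, SE 0.06) and Wnt11 (0.97, SE 0.17), both ligands of the non-canonical pathway, were higher and 0 lower. Lrrc32, which holds latent TGF-beta at the cell surface (0.69, SE 0.10), and the Wnt receptor gene Fzd7 (0.46, SE 0.07) were higher as well, are outside the lists and were named after their values were seen. None of 19 smooth muscle contractile genes, which mark myofibroblasts, was called, although their median log2 fold change was 0.16 and 7 had an unadjusted p under 0.05, which 2422 (16.7%) of all genes tested had. Cnn1, or calponin, had 11 to 14.1 CPM in Gata4 KD and 5.68 to 8.16 CPM in Tbx20 KD (log2 fold change 0.90, adjusted p = 0.0524). The call of Id4 held without any 1 library. The others were lost on leaving out single libraries, with the highest adjusted p for Bmpr1b (0.19 without Tbx20 KD c), Smad9 (0.189 without Tbx20 KD b), Tgfbr1 (0.214 without Tbx20 KD c), Wnt5a (0.152 without Tbx20 KD c), Wnt11 (0.212 without Tbx20 KD c), Bambi (0.133 without Tbx20 KD b), Crim1 (0.12 without Tbx20 KD c), Smoc1 (0.173 without Tbx20 KD c), Lrrc32 (0.129 without Gata4 KD a) and Fzd7 (0.162 without Tbx20 KD c).

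Further genes with the smallest p-values or the largest differences served varied roles. Frk, a tyrosine kinase, was at 80.5, 84.8 and 82.7 CPM in Gata4 KD and at 40.1, 42.5 and 41.8 CPM in Tbx20 KD (1.99-fold higher, SE 0.05 on the log2 scale, adjusted p = 0.000595). Cplx2, a complexin that binds the vesicle fusion machinery, was at 37.5 to 41.2 CPM and at 73.3 to 79.2 CPM (log2 fold change -0.99, SE 0.06, adjusted p = 0.000961). Replicates of both genes were close together, and both are among the 10 smallest p-values with a change near 2-fold. Tanc2, a scaffold protein (0.93, SE 0.06), was higher and Rnpepl1, an aminopeptidase-like gene (-1.02, SE 0.07), lower. Peg10, an imprinted gene derived from a retrotransposon, was at 89.1, 91.8 and 121 CPM in Gata4 KD and at 180, 236 and 217 CPM in Tbx20 KD (log2 fold change -1.06, SE 0.14, adjusted p = 0.0207). The transcription factor gene Mycn (-1.17), the actin-binding Ablim1 (-1.22), the synaptic vesicle gene Synpr (-1.22), the glycosyltransferase gene Gcnt1 (-1.12), the G protein subunit gene Gna14 (-1.04) and the heparan sulfate enzyme gene Ndst3 (-1.02) were lower as well. The secreted glycoproteins Stc1 (1.87, SE 0.33) and Stc2 (-0.83, SE 0.14) differed in opposite directions. Frk, Cplx2, Tanc2 and Rnpepl1 kept their calls without any 1 library. The others lost theirs on leaving out single libraries, with the highest adjusted p for Peg10 (0.119 without Tbx20 KD c), Mycn (0.12 without Tbx20 KD c), Ablim1 (0.17 without Tbx20 KD b), Synpr (0.168 without Tbx20 KD b), Gcnt1 (0.0696 without Gata4 KD a), Gna14 (0.188 without Tbx20 KD b), Ndst3 (0.119 without Tbx20 KD c), Stc1 (0.218 without Tbx20 KD c) and Stc2 (0.193 without Tbx20 KD c).

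Among 28 tested hypoxia and glycolysis genes Vegfa was higher and 2 were lower, against a share of 1.44% called among all genes. Car12, a carbonic anhydrase at the cell surface, was at 5.78 to 6.58 CPM in Gata4 KD and at 10.2 to 12.1 CPM in Tbx20 KD (log2 fold change -0.81, SE 0.10, adjusted p = 0.0169), and Ndrg1, a stress-responsive gene, at 21.7 to 26.7 CPM and 34.7 to 40.3 CPM (log2 fold change -0.68, SE 0.10, adjusted p = 0.0247). Of 22 tested immediate early genes, which respond first to a stimulus, Nr4a1 and Fosl2 were higher and 0 lower, and Fosl2, an AP-1 subunit, was at 284 to 330 CPM against 206 to 231 CPM (log2 fold change 0.51, SE 0.07, adjusted p = 0.0242). Among 31 tested ion channel genes of the list Kcnab1, a potassium channel beta subunit, was the 1 call, with 26.6 to 30 CPM in Gata4 KD and 36.4 to 41.2 CPM in Tbx20 KD (log2 fold change -0.46, SE 0.07, adjusted p = 0.0296). Ano6, an ion channel and lipid scramblase outside the list that was named after its values were seen, was higher (0.35, SE 0.05). Of 35 tested genes that the study lists as enriched in heart fibroblasts, Itga4 and Gucy1b1 were lower and Col2a1 higher, at a median log2 fold change of -0.32 against -0.006 for all genes tested. These calls, apart from that of Itga4, were lost on leaving out single libraries, with the highest adjusted p for Car12 (0.101 without Gata4 KD a), Ndrg1 (0.136 without Tbx20 KD c), Fosl2 (0.142 without Tbx20 KD c), Ano6 (0.134 without Tbx20 KD b) and Kcnab1 (0.156 without Tbx20 KD c).

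**Figure D5:**
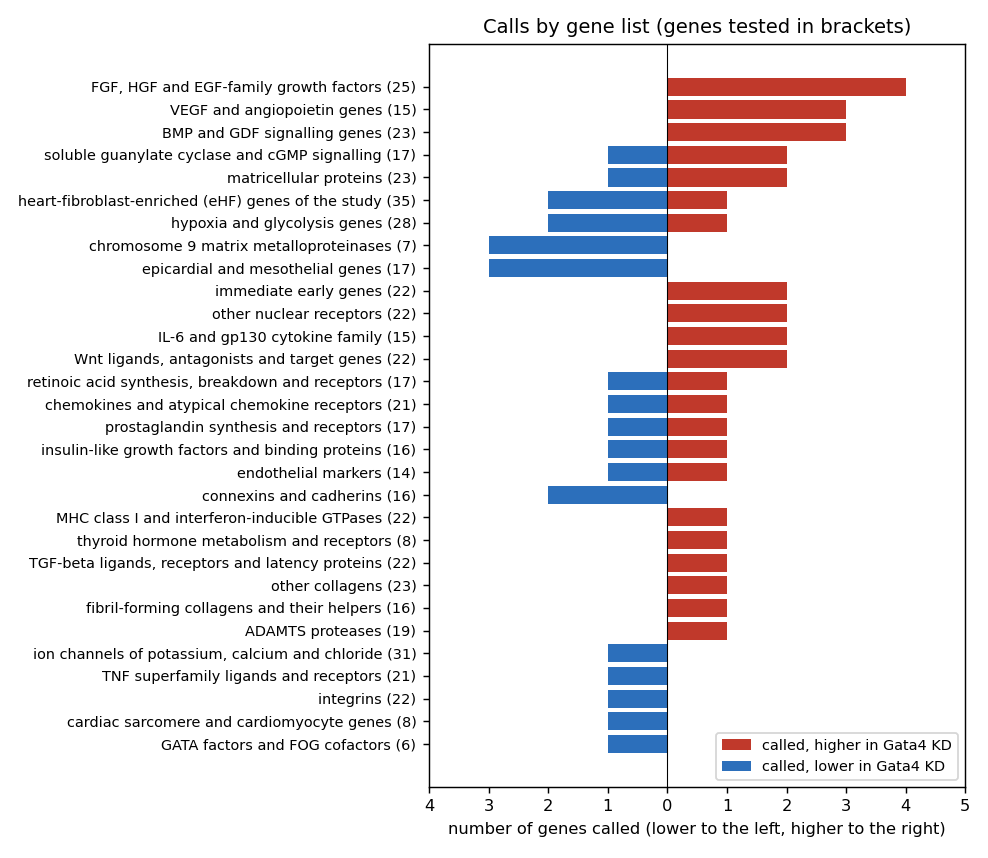
Number of genes called higher (right, red) and lower (left, blue) in Gata4 KD for each gene list with at least 1 call, with the number of genes tested in brackets. The growth factor list has the most calls, 4 higher and 0 lower of 25 tested, and the metalloproteinase cluster and the epicardial list have 3 lower each. Of all 14477 genes tested, 0.815% were called higher and 0.622% lower.

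Several gene groups held no called gene, which says little at a share of 1.44% called among all genes. These were the 30 DNA replication genes (median log2 fold change -0.06), the 30 mitosis genes (-0.07), 27 p53 targets (-0.05), 31 interferon-stimulated genes (-0.13), 23 cholesterol synthesis genes (0.17), 28 genes of the unfolded protein response (0.07), 18 heat shock and oxidative stress genes (0.04), 17 other cardiogenic transcription factors (0.07), 13 Notch genes (0.04), 13 mitochondrially encoded genes (0.10), 10 Hox genes (0.10) and 42 axon guidance genes (-0.07). The 13 laminin and linker genes, 12 small leucine-rich proteoglycans, 18 collagen-modifying enzymes, 5 mural cell markers, 7 Schwann and neural markers and 10 genes of the aryl hydrocarbon receptor held none either. A miss of the threshold with 3 libraries a side does not show equal levels: of the interferon-stimulated genes 27 of 31 had a value below 0 and 7 an unadjusted p under 0.05, and of the cholesterol genes 22 of 23 had a value above 0 and 6 such a p, where 16.7% of all genes tested had such a p. Called genes close to these groups but outside the lists, named after their values were seen, were the interferon gene Ifnb1 (-1.23, SE 0.19, at 0.756 to 0.968 CPM in Gata4 KD) and Ube2l6, an enzyme that attaches ISG15 (-0.34, SE 0.04), both lower, and Ern1, the IRE1 sensor of the unfolded protein response (0.33, SE 0.06), which was higher. Each lost its call without Tbx20 KD c, among other libraries (adjusted p = 0.163 for Ifnb1, 0.12 for Ube2l6 and 0.221 for Ern1). Other GATA and T-box factors were not called either. Gata6, at 43.4 to 45 CPM in Gata4 KD and 44.2 to 47.3 CPM in Tbx20 KD, differed by -0.03 on the log2 scale (adjusted p = 0.776), and Gata2 had values of 19.5 to 26.5 CPM and 14.9 to 19.1 CPM (log2 fold change 0.50, adjusted p = 0.136).

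Leukocyte markers were low, whereas the endothelial list and the Schwann and neural list each drew most of their sum from a single gene. The Schwann and neural genes summed to 133 to 199 CPM in Gata4 KD and to 207 to 244 CPM in Tbx20 KD. Without Tubb3, their most abundant member, the sums were 25.6 to 26.3 CPM and 22.8 to 24.9 CPM. The 16 tested leukocyte genes summed to 63.1, 35.2 and 63.1 CPM in Gata4 KD and to 57.7, 91.2 and 63.1 CPM in Tbx20 KD. None was called, which says little at a share of 1.44% called among all genes. Of these 16 genes, 14 had a log2 fold change below 0. Their median was -0.46, against -0.006 for all genes tested. Against a share of 1.44% called among all genes, Kdr was higher and Ptprb lower of 14 tested endothelial genes. Their sum was 313 to 358 CPM in Gata4 KD and 453 to 511 CPM in Tbx20 KD, but most of it came from Ptprb, a phosphatase of vessel cells, at 254, 262 and 281 CPM against 409, 382 and 437 CPM (log2 fold change -0.63, SE 0.07, adjusted p = 0.00894). Without Ptprb the sums were 58.9, 58.4 and 77.3 CPM in Gata4 KD and 58.1, 71 and 73.7 CPM in Tbx20 KD, which overlap. The defining endothelial genes Pecam1 and Cdh5 were at 7 to 9.22 CPM and 3.24 to 5.42 CPM in Gata4 KD and at 4.98 to 8.16 CPM and 3.36 to 5.53 CPM in Tbx20 KD, with overlap between groups. The call of Ptprb was lost without Gata4 KD a (adjusted p = 0.0838) and without Tbx20 KD c (adjusted p = 0.0637). The part of other cells in the results was not tested.

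Of the genes next to each target none was called, which is read against a share of 1.44% called among all genes and so says little for so few genes. Within 2000 kb of Gata4, 28 genes were tested with 0 called, and their median log2 fold changes were 0.020 on the side of lower coordinates (16 genes) and -0.054 on the other (12 genes). Within 2000 kb of Tbx20, 7 genes were tested with 0 called. The nearest tested neighbour of Gata4 was Neil2, at a distance of 5.07 kb (log2 fold change 0.14, adjusted p = 0.874), and the nearest of Tbx20 was Dpy19l1, at 215 kb (0.06, adjusted p = 0.744). Chromosome 14 held 7 called genes of 500 tested, Gata4 among them, and chromosome 9 held 14 of 792 tested (1.77%, against 1.44% of all genes), among them the 3 metalloproteinase genes.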

How the data were processed

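RNA of the 9 libraries was read as 75 base single-end reads from a stranded mRNA kit, as the methods and labels state. The authors aligned reads with Bowtie2 (the submitters' processing notes say Bowtie) and estimated abundance per gene with RSEM, which divides reads shared by several genes. Their methods name GRCm38 and the submitters' processing notes name mm9. The deposited table holds expected counts per gene, as whole numbers and not normalized, with 38924 gene IDs, of which 37607 had a symbol in GENCODE M21 (GRCm38).

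The 6 knockdown libraries were fitted in edgeR 4.0.16 (R 4.3.3) after filterByExpr and TMM scaling, and tested by quasi-likelihood (glmQLFTest) without covariates, with Benjamini-Hochberg adjustment over the 14477 genes tested and a threshold of 0.05. Every adjusted p and log2 fold change is from this fit unless another is named. Each SE was derived from the test, as the absolute log2 fold change divided by the square root of its F statistic. CPM in the text was scaled over all 9 libraries. On simulated counts with 200 changed genes the test was checked before use. Those counts were drawn independently with the spread estimated from these libraries, so the check cannot show the effect of a deviating library. Named were both targets, the 15 genes at each end of the log2 fold change among called genes of at least 5 CPM with no overlap and no predicted symbol, the 10 smallest p-values, up to 4 called members of a list, or up to 2 by p where none was called, and the neighbours of the targets. The 54 gene lists, these rules and the tests were chosen with earlier results of these data known, so no list is independent evidence. Sharing of 75 base windows with other genes was computed from GENCODE transcripts, and the 2 called genes that shared over 50% are not named. The authors' RSEM command set strand-specific counting, with reads taken from the reverse strand. Guide sites were matched to GENCODE transcripts and promoters taken from RefSeq (GRCm38.p6). No batch is given in the labels. Alternatives were DESeq2 1.42.0, limma-voom (limma 3.58.1), edgeR's exact test, other scaling and filters, all 9 libraries, a minimum change, the replicate letter as a block and leaving out each library.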

Additional observations from a re-analysis of the deposited data

How the results depend on the processing

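The number of genes called moved with the test. DESeq2 called 758 (451 higher and 307 lower in Gata4 KD) and edgeR's exact test 729 (424 and 305), which included 207 and 208 of the 208 genes. With no filter beyond a total above 0 the number was 324 (170 and 154), and with a minimum change of 1.2-fold (glmTreat) 55 (30 and 25). The other filters, library size scaling, limma-voom, all 9 libraries in 1 fit and predicted symbols left out gave 191 to 255. Leaving out 1 library gave 22 to 801 genes in all, 13 to 402 higher and 9 to 399 lower. Gata4 kept its call throughout, at -1.92 to -1.66 with 1 library left out. Tbx20 passed in DESeq2 (log2 fold change 0.83, adjusted p = 0.00063) and the exact test (0.84, adjusted p = 0.00427) and in no other alternative. Of the called genes named, limma-voom ended the calls of Stc1, Bmpr1b, Gna14, Selp and Wnt11, library size scaling those of Ern1, Il6, Nr4a1, Selp and Tgfbr1, and the fit of all 9 libraries those of Angptl2, Ccl4, Cxcl10, Fzd7, Ifnb1, Il6, Pde3b, Ptgis, Tgfbr1 and Wnt5a, and the minimum change ended 45. No called gene changed sign under any alternative. Of the named genes not called, Dpy19l1 (-0.01 to 0.11), Mmp12 (-0.13 to 0.22), Neil2 (-0.05 to 0.43) and Wt1 (-0.37 to 0.06) did so with 1 library left out.

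The labels do not say whether libraries of both groups with the same letter share an animal, a culture or a day. Deviations from the group means of same-letter libraries correlated at 0.0962, -0.219 and 0.285, against -0.431 to 0.399 for different letters. So few values cannot decide whether the letters are pairs, and the main fit did not pair them. With the letter as a replicate block 101 genes were called (56 higher and 45 lower), 90 of them among the 208, and 31 of the called genes named lost their call. The causes of these shifts were not tested. Depth limits the lowest genes, such as Gpm6a with as few as 7 counts in a library.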

Other observations

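The genes Mfap4, Heyl and Ogn varied widely between libraries of the same group, and their groups overlapped. Mfap4, a microfibril protein, was at 4.94, 1.95 and 22.3 CPM in Gata4 KD a, b and c, at 7.52, 24.1 and 27.9 CPM in Tbx20 KD a, b and c, and at 12.8, 19.5 and 5.85 CPM in control a, b and c. Heyl, a Notch target gene, was at 1.89, 1.07 and 6.06 CPM in Gata4 KD and at 5.72, 14.4 and 16.7 CPM in Tbx20 KD (log2 fold change -2.02, SE 0.62, adjusted p = 0.172). In both genes Gata4 KD c was the highest of its group and Tbx20 KD a the lowest of its own. Ogn, a small leucine-rich proteoglycan, was at 27.6, 26.6 and 64.2 CPM in Gata4 KD and at 51.5, 96.7 and 85.2 CPM in Tbx20 KD, with the same libraries highest and lowest. These genes were picked after their values were seen. Tcf21, a transcription factor of the fibroblast lineage whose groups did not overlap, was at 113, 88.1 and 156 CPM in Gata4 KD and at 184, 250 and 234 CPM in Tbx20 KD (log2 fold change -0.90, adjusted p = 0.0932), again with c as the highest library of Gata4 KD and a as the lowest of Tbx20 KD.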
